A study of Mus musculus with 8 samples.

Results

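The genes described here are 40 genes of DNA replication and mitosis, chosen by name: the helicase, loading and fork proteins, the enzymes of nucleotide supply, the cyclins with Cdk1 and Chek1, the mitotic kinases and spindle genes, and the proliferation markers Mki67 and Top2a. All 40 were found among the 54141 genes of the deposited table, and all 40 passed the filter on low counts, which 16132 genes passed in all. RNA-seq had been run on epithelial cells from the distal colon of C57BL/6J mice, 4 libraries labelled wild type (WT) and 4 labelled homozygous mutant for Degs2 (Degs2_KO). Degs2 is a sphingolipid enzyme that hydroxylates dihydroceramide to phytoceramide. The cells had been released with EDTA and strained. The labels used here name no age, sex or kind of mutant allele and do not tie each library to a separate mouse, so each p-value measures only the spread between these libraries, which may be technical.

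A cell copies its DNA once in S phase and divides it in mitosis. Mcm2 to Mcm7 form the ring that is loaded onto origins by Cdc6 and Cdt1 and that then unwinds DNA together with the GINS complex; Pcna clamps the polymerases, and the Rrm1 and Rrm2 subunits of ribonucleotide reductase supply deoxynucleotides. In mitosis cyclin B with Cdk1, the Plk1 and Aurora kinases and spindle motors such as Kif11 take over. In the colon dividing cells sit in the lower crypt and lose this program as they move towards the surface. Genes of the S phase program are classically regulated through E2F sites, and genes of the mitotic program through the CHR element (cell cycle genes homology region) beside CCAAT boxes.

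Promoter sequences are shown for 3 helicase genes and 3 mitotic genes, because these gene groups are compared in level; the 6 genes were picked as examples that hold the motifs. Each window runs from 250 bases before to 50 bases after the annotated start, from RefSeq on GRCm38.p6, the mm10 assembly, printed 5′ to 3′ in the direction of the gene. Capitals mark the E2F motif (TTTCCCGC, TTTCGCGC, TTTGCCGC or TTTGGCGC), the CHR motif (TTTGAA or TTCGAA) and the CCAAT box (CCAAT), each searched on both strands. Matches that overlap, as in the paired E2F words of Mcm5 and Mcm6 and the E2F word and CCAAT box of Mcm7, run together as a single stretch of capitals.
Mcm5 (chr8:75109259-75109558, plus strand): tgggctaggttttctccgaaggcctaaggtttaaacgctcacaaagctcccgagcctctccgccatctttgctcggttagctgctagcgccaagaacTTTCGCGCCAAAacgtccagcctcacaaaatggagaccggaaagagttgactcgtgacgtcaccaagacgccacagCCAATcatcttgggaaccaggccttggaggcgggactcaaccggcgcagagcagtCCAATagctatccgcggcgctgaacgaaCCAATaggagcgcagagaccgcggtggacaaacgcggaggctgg
Mcm6 (chr1:128359656-128359955, minus strand): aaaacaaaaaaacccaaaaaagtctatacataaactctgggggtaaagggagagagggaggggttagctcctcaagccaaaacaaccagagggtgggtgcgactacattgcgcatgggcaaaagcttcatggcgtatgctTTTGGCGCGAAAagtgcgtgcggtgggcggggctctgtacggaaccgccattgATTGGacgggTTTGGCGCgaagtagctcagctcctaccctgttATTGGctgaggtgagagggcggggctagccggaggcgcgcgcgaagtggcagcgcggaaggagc
Mcm7 (chr5:138171834-138172133, minus strand): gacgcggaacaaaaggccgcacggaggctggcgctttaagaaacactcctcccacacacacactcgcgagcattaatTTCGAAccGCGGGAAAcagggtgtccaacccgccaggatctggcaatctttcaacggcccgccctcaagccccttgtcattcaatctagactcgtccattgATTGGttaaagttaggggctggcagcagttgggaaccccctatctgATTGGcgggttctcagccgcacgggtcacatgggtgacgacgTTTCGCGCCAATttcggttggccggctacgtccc
Ccnb2 (chr9:70421505-70421804, minus strand): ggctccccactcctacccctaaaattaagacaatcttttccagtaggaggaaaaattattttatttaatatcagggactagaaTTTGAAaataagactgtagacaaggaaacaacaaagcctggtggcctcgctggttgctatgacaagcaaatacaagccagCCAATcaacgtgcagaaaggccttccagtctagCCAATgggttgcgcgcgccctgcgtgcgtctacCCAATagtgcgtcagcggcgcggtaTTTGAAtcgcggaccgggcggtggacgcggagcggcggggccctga
Plk1 (chr7:122159185-122159484, plus strand): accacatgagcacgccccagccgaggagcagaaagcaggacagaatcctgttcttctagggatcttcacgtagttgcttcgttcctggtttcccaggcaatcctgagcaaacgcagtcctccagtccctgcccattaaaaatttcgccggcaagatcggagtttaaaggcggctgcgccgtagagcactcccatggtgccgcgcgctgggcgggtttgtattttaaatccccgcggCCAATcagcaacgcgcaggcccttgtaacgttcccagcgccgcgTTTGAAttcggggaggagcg
Kif11 (chr19:37376132-37376431, plus strand): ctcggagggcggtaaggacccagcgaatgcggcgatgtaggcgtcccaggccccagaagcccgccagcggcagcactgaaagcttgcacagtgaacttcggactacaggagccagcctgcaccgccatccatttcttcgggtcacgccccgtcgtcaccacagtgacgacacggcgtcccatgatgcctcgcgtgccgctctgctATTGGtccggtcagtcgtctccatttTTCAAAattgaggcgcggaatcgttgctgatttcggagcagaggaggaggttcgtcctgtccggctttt

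The RefSeq table held a promoter for 34 of the 40 genes. Ccna2, Ccne2, Mcm4, Aurkb, Gins1 and Gins2 were not matched. The E2F motif was in 7 of 18 promoters of replication genes (38.9%), in 1 of 13 promoters of mitotic genes (7.69%) and in 2.32% of 27025 promoters of all genes. The CHR motif showed the opposite split. It was in 11 of 13 mitotic promoters (84.6%), in 3 of 18 replication promoters (16.7%) and in 19.4% of all promoters, and in 10 of the mitotic genes a match began within 50 bases of the start. The CCAAT box was in 12 of 13 mitotic promoters (92.3%), 11 of 18 replication promoters (61.1%) and 37.9% of all promoters. Cdk1 was the single mitotic gene with an E2F word. Mcm2, Mcm7 and Fen1, the flap endonuclease of lagging strands, were the replication genes with a CHR word. Ccnb1 held CCAAT boxes and Birc5 none of these motifs. A match describes letters in the window, and a window without one says only that these letters are not there. The motifs were counted in every member with a promoter, whatever its level in the libraries.

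**Figure D1:**
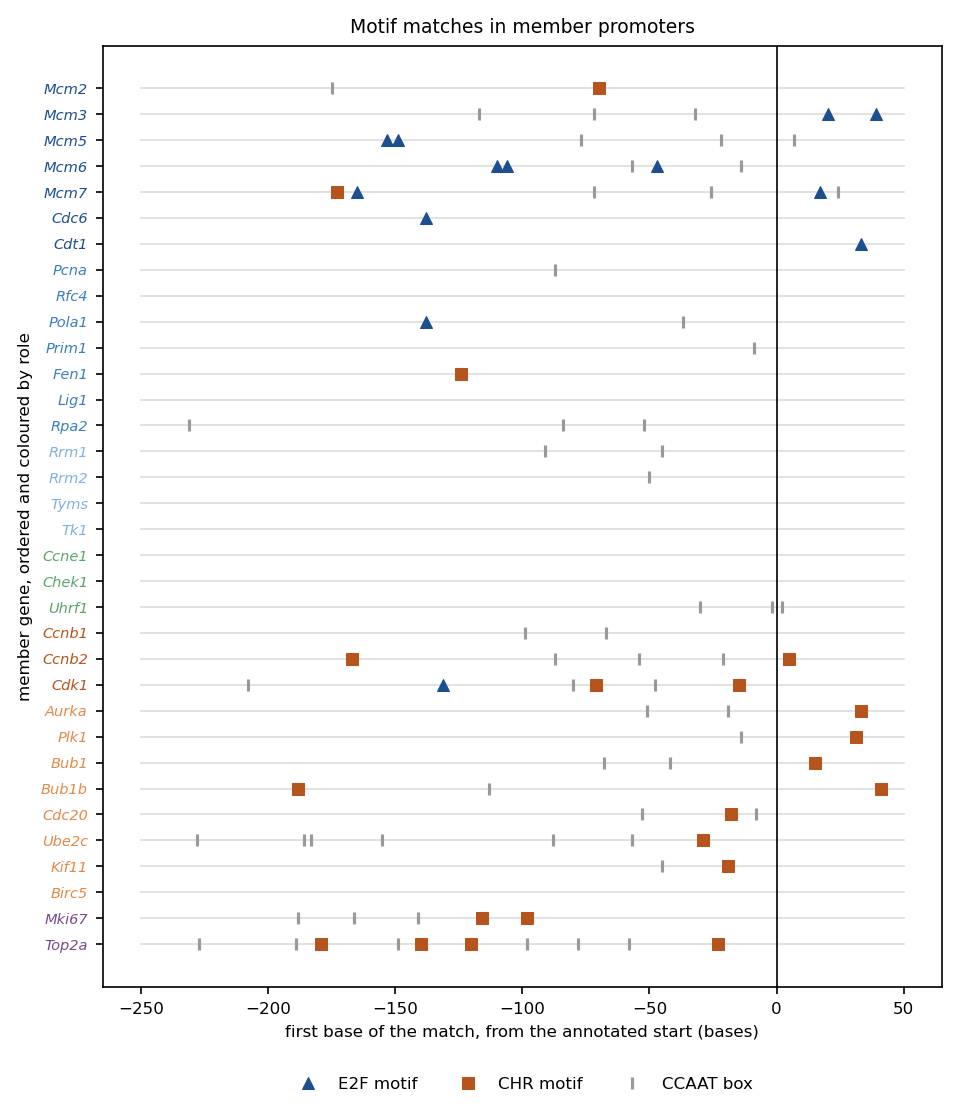
Motif matches in the 34 promoters, with the first base of each match in bases from the annotated start on the x axis and genes on the y axis, ordered and coloured by role as in the fold change plot. Triangles are E2F words, squares CHR words and ticks CCAAT boxes; the squares of the mitotic genes sit mostly between 50 bases before and 50 bases after the start.

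The 8 libraries held from 32830000 to 49820000 fragments once the authors' library factor was undone. In the counts as deposited, with that factor, the lowest value of any member was 99, for Gins1. Degs2 itself was 151, 109.6, 106 and 120.3 CPM in WT 1 to 4 and 53.3, 47.8, 65.6 and 65.9 CPM in Degs2_KO 1 to 4 (CPM, counts scaled to library size). The 2 groups did not overlap, with a log2 fold change of -1.07 ± 0.15 (SE) and an exact 2-sided permutation p of 0.0286, the smallest that 70 assignments allow; the adjusted p was 0.796 with edgeR's quasi-likelihood test and 6.96e-07 with DESeq2. The Degs2_KO libraries therefore kept Degs2 reads, and the labels used here do not say which part of the gene the allele removes. All 12 markers of colon epithelium were measured, with a summed level of 17100 to 21150 CPM in every library, while the sums of lists for cells outside the epithelium were 26.7 to 46.4 CPM for myeloid, 4.08 to 34.3 for T cell, 2.63 to 40.4 for fibroblast and 1.13 to 2.54 for B and plasma cell markers. Libraries WT 1 and Degs2_KO 3 stood apart on the first principal component (50.3% of the variance) and had the lowest levels of the distal Hox list. Without both, 39 of the 40 members were above 0 in log2 fold change (Degs2_KO over WT), with a median of 0.35 and 0 past the threshold.

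Between genotypes none of the 40 genes passed the test. With p-values adjusted over all 16132 genes (edgeR, Benjamini-Hochberg, threshold 0.05), 0 genes were called (0%), the adjusted p of every member was 1 after rounding, and DESeq2 called 2, Degs2 and the imprinted gene Dlk1, neither of them a member. At an unadjusted p under 0.05 the edgeR test gave 1 member, Pcna, where the background was 183 genes (1.13%). No member had groups that did not overlap, against 1.04% of all genes tested. Direction was less even: the fitted log2 fold change was above 0 for 38 of 40 members, against 47.4% of all genes, with a median of 0.23 against -0.0069. Gins2 and Ccnb1 were the members below 0. In bulk RNA a change in the share of dividing cells and a change in RNA per dividing cell cannot be told apart. WT 4 was the lowest of the 8 libraries for 36 of 40 members, while it was the lowest for 17.3% of all genes, and without it 25 of 40 members were above 0 with a median of 0.11.

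**Figure D2:**
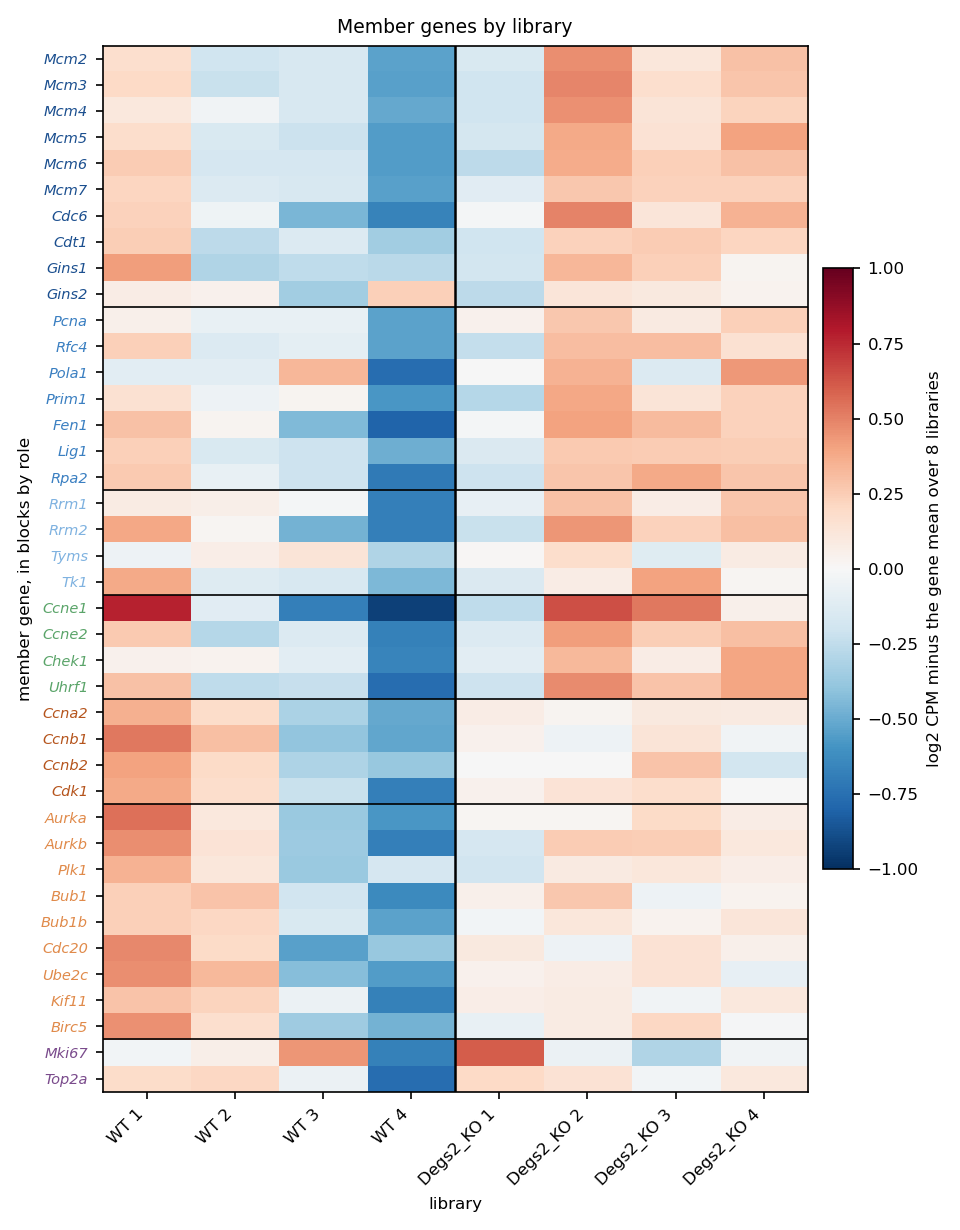
Heat map of the 40 genes (rows, in blocks by role) in the 8 libraries (columns), coloured by log2 CPM minus the mean of that gene over the 8 libraries. WT 4 is blue in nearly every row, Degs2_KO 2 is red mainly in the upper replication blocks, and WT 1 is reddest in the lower mitotic blocks.

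The loading and helicase genes spanned most of the range of levels per length. Gins2, whose exons partly lie under those of Gse1 on the opposite strand, stood at 21.4 CPM per kilobase of exon. Mcm6 reached 14.0 CPM per kilobase of exon over the 8 libraries, Mcm7 9.78, Mcm5 9.82 and Mcm2 5.21, while the loader Cdc6 had the lowest level of all 40 genes at 1.36. Mcm2 was 39.9, 30.9, 31.7 and 24.5 CPM in WT 1 to 4 and 32.0, 49.0, 38.4 and 43.5 CPM in Degs2_KO 1 to 4. Its groups overlapped: WT 1 was above Degs2_KO 1 and 3, and all 4 Degs2_KO libraries were above the WT mean. The means were 31.7 ± 6.29 CPM among the WT libraries and 40.7 ± 7.27 CPM among the Degs2_KO libraries (SD, n = 4 each), a log2 fold change of 0.36 ± 0.17 (SE; 95% interval -0.026 to 0.74). In all 6 Mcm genes WT 4 was the lowest library, and Degs2_KO 2 was the highest in all but Mcm5. Here and for the genes that follow, a value with ± is the log2 fold change with its SE unless CPM are named. The log2 fold changes of the other subunits were 0.36 for Mcm3, 0.30 for Mcm4, 0.37 for Mcm5, 0.31 for Mcm6 and 0.29 for Mcm7. Without WT 4 these values lay between 0.18 for Mcm7 and 0.26 for Mcm5.

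Cdc6, the ATPase that loads the helicase ring, was 8.05, 6.67, 5.01 and 4.32 CPM in WT 1 to 4 and 6.79, 9.70, 7.48 and 8.73 CPM in Degs2_KO 1 to 4. Here too WT 4 was lowest and Degs2_KO 2 highest, and all 4 Degs2_KO libraries exceeded the WT mean. Its log2 fold change, 0.44 ± 0.21 (SE; 95% interval -0.035 to 0.92), was the largest of the loading and helicase genes. Cdt1, the partner of Cdc6 in loading, had 0.24 ± 0.16. Gins1 and Gins2 encode subunits of the GINS complex and did not share this pattern. Gins1 was 3.88, 2.36, 2.44 and 2.41 CPM in WT 1 to 4 and 2.55, 3.65, 3.43 and 2.97 CPM in Degs2_KO 1 to 4, so that WT 1 alone was high in its group and no Degs2_KO library exceeded it. Gins2 was 91.3, 89.6, 68.1 and 102 CPM in WT 1 to 4 and 72.6, 94.6, 92.9 and 89.0 CPM in Degs2_KO 1 to 4, with WT 4 as its highest library and a log2 fold change of -0.0087 ± 0.13. In the annotation 67.3% of the exon bases of Gins2 lie under exons of Gse1 on the opposite strand. Gse1 was likewise highest in WT 4, at 130 CPM, but the lowest libraries of the 2 genes differed. Gse1 was lowest in Degs2_KO 3, at 57.2 CPM, where Gins2 was 92.9 CPM. Gins2 was lowest in WT 3, at 68.1 CPM, where Gse1 was 97.1 CPM. The labels used here do not state a strand setting for counting, so reads of the 2 genes cannot be told apart.

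At the fork, Pcna was the member with the smallest p. It was 66.9, 61.4, 61.5 and 44.6 CPM in WT 1 to 4 and 66.5, 77.8, 69.0 and 76.6 CPM in Degs2_KO 1 to 4. The 4 Degs2_KO libraries all exceeded the WT mean and 3 of them exceeded every WT library, while Degs2_KO 1 lay just under WT 1. Means were 58.6 ± 9.67 CPM among the WT libraries and 72.5 ± 5.56 CPM among the Degs2_KO libraries (SD, n = 4 each), and the log2 fold change was 0.31 ± 0.13 (SE; 95% interval 0.023 to 0.59). Without WT 4 it was 0.20. A processed pseudogene, Pcna-ps2, matched Pcna at 99.2% identity over its best stretch and carried a count equal to 9.78% of that of Pcna, so some reads may have been split between them. Pcna-ps2 had a log2 fold change of 0.28 ± 0.20.

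Fen1, which removes the flaps of lagging strand fragments, was 20.4, 17.0, 12.3 and 9.55 CPM in WT 1 to 4 and 16.4, 22.0, 20.8 and 19.6 CPM in Degs2_KO 1 to 4. WT 1 lay among the Degs2_KO libraries and the other WT libraries lay near or below the lowest of them. Its log2 fold change of 0.41 ± 0.22 was the largest of the fork genes, with an interval of -0.092 to 0.91. The remaining fork genes were also on the high side in Degs2_KO: 0.34 for Rpa2, a subunit of the single-strand binding protein, 0.29 for Lig1, the ligase that seals nicks, 0.29 for Pola1 and 0.22 for Prim1, subunits of polymerase alpha and primase, and 0.26 for Rfc4, a subunit of the clamp loader. All 7 fork genes were above 0 and remained so without WT 4, where they ran from 0.091 for Prim1 to 0.25 for Fen1. The exons of Rfc4 share 12.7% of their bases with Eif4a2 on the opposite strand, whose mean count was 18480 against 319 for Rfc4. Opposite-strand overlap also covered 78.8% of Fen1 (by Gm10143, with a mean count of 6.70) and 22.8% of Ube2c (by Tnnc2, 0.588). It covered 17.4% of Ccne2 (by Ints8, 1828 against 473 for Ccne2) and 12.5% of Ccna2 (by Exosc9, 932.7 against 3244.5 for Ccna2). With no strand setting stated, reads of these pairs cannot be told apart either. In all, 12 members shared exon bases with another gene, and 6 of them, including Gins2, shared over 10%.

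Of the nucleotide supply genes, Rrm2, the small and cell cycle regulated subunit of ribonucleotide reductase, was 25.9, 20.2, 14.3 and 12.3 CPM in WT 1 to 4 and 17.0, 27.0, 23.3 and 24.5 CPM in Degs2_KO 1 to 4. WT 1 lay just under the highest Degs2_KO library, and the log2 fold change was 0.34 ± 0.24 (SE). Rrm1, the large subunit, was 64.0, 62.9, 59.5 and 37.6 CPM in WT 1 to 4 and 56.8, 73.7, 63.5 and 72.9 CPM in Degs2_KO 1 to 4. Among the WT libraries of Rrm1 only WT 4 lay apart, well under the other 3, and its log2 fold change of 0.25 ± 0.17 was 0.10 without that library. Tk1, the thymidine kinase of the salvage route, had 0.16 ± 0.18. Tyms, which makes thymidylate, had the smallest spread over the 8 libraries of all 40 genes, at 26.2, 28.4, 29.6 and 21.9 CPM in WT 1 to 4 and 27.4, 30.7, 25.0 and 28.6 CPM in Degs2_KO 1 to 4. The log2 fold change of Tyms was 0.072 ± 0.11 and went to -0.0083 without WT 4. A stretch of Tyms matched more abundant genes, among them Reep3 (355 bases, 97.7% identity, mean count 5455) and Map3k2 (357 bases, 95.5%, 2842). The mean count of Tyms was 1139.4, and the part of such matches in it was not tested.

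Ccne1 and Ccne2 encode the E cyclins that start S phase. Ccne1 had the largest spread of the 40 genes, 3.26-fold from the lowest to the highest library, at 9.01, 4.91, 3.30 and 2.77 CPM in WT 1 to 4 and 4.46, 8.28, 7.62 and 5.48 CPM in Degs2_KO 1 to 4. WT held both its highest library, WT 1, and its lowest, WT 4, and the log2 fold change was 0.37 ± 0.37, with the widest interval of the set (-0.48 to 1.22). Leaving out 1 library at a time moved it between 0.17 (without WT 4) and 0.83 (without WT 1). Ccne2 had 0.39 ± 0.20. Chek1, the kinase of the replication checkpoint, had 0.33 ± 0.19. Uhrf1, which guides maintenance of DNA methylation behind the fork, was 47.9, 32.8, 33.1 and 23.0 CPM in WT 1 to 4 and 33.8, 54.2, 47.5 and 51.1 CPM in Degs2_KO 1 to 4. It had the largest log2 fold change of the 40 genes, 0.45 ± 0.22 (SE; 95% interval -0.057 to 0.95), and 0.30 without WT 4. The 4 genes of this class were all above 0, with a median of 0.38.

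The mitotic cyclins and Cdk1 gave smaller differences. Ccnb1, cyclin B1, was 36.8, 31.5, 19.4 and 17.8 CPM in WT 1 to 4 and 26.4, 24.6, 28.0 and 24.9 CPM in Degs2_KO 1 to 4. The 4 Degs2_KO libraries lay close together inside the WT range, with WT 1 and 2 above them and WT 3 and 4 below. The log2 fold change was -0.021 ± 0.22 (SE; 95% interval -0.53 to 0.48). A Ccnb1 pseudogene, Gm8416, carried a count equal to 3.06% of that of Ccnb1. Cdk1, the kinase that drives mitotic entry, was 34.9, 30.3, 22.9 and 16.7 CPM in WT 1 to 4 and 27.7, 29.5, 30.4 and 26.8 CPM in Degs2_KO 1 to 4, with 0.12 ± 0.20. Ccna2, cyclin A2, had 0.10 ± 0.18 and Ccnb2, cyclin B2, 0.022 ± 0.19. No Degs2_KO library exceeded the highest WT library in any of these 4 genes. Without WT 4 all 4 were below 0, from -0.17 for Ccnb1 to -0.028 for Ccna2.

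Plk1, the kinase of centrosome maturation and mitotic exit, was 62.2, 52.9, 37.8 and 43.6 CPM in WT 1 to 4 and 42.9, 52.2, 53.0 and 51.3 CPM in Degs2_KO 1 to 4. WT 3, not WT 4, was lowest here, and the log2 fold change was 0.021 ± 0.15 (95% interval -0.32 to 0.36). Gm44985, on the opposite strand, shares 7.09% of the exon bases of Plk1 and had a mean count of 2649, against 2070.8 for Plk1. Cdc20, also lowest in WT 3, shares 2.84% with Elovl1 (3246 against 1169.4). The part of these overlaps in the levels was not tested. Kif11, the motor that separates spindle poles, was 58.5, 56.0, 46.0 and 29.9 CPM in WT 1 to 4 and 50.2, 50.7, 46.8 and 51.5 CPM in Degs2_KO 1 to 4. Its Degs2_KO libraries ran from 46.8 to 51.5 CPM and its WT libraries from 29.9 to 58.5 CPM, and the log2 fold change was 0.066 ± 0.18 (95% interval -0.35 to 0.48). Aurkb, the kinase of the chromosomal passenger complex, had both the smallest p and the largest log2 fold change among the kinase and spindle genes. It was 24.0, 19.0, 13.4 and 10.8 CPM in WT 1 to 4 and 15.4, 20.7, 20.6 and 18.7 CPM in Degs2_KO 1 to 4, with 0.17 ± 0.23. Aurka, the spindle pole kinase, had 0.082, Bub1 and Bub1b of the spindle checkpoint 0.11 and 0.087, Birc5 of the passenger complex 0.052, and Cdc20 and Ube2c, which act with the anaphase-promoting complex, 0.064 and 0.026. In all 9 kinase, spindle and exit genes the groups overlapped and the highest library was a WT library.

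Mki67 and Top2a, the markers most used to count dividing cells, were among the most abundant members per length, with Mki67 at 27.4 CPM per kilobase, Pcna at 27.3, Plk1 at 22.5 and Top2a at 15.8 against a median of 6.67. Mki67 coats mitotic chromosomes. It was 262, 277, 363 and 167 CPM in WT 1 to 4 and 406, 256, 217 and 260.0 CPM in Degs2_KO 1 to 4. Its highest libraries were Degs2_KO 1 and WT 3 and its lowest was WT 4, and its log2 fold change was 0.091 ± 0.26 (95% interval -0.49 to 0.67). Top2a, the topoisomerase that untangles sister chromatids, was 159, 162, 134 and 82.4 CPM in WT 1 to 4 and 161, 154, 137 and 150.4 CPM in Degs2_KO 1 to 4. The other 7 libraries of Top2a lay between 134 and 162 CPM and WT 4 alone lay far below, and the log2 fold change of 0.16 ± 0.19 became -0.010 without it.

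**Figure D3:**
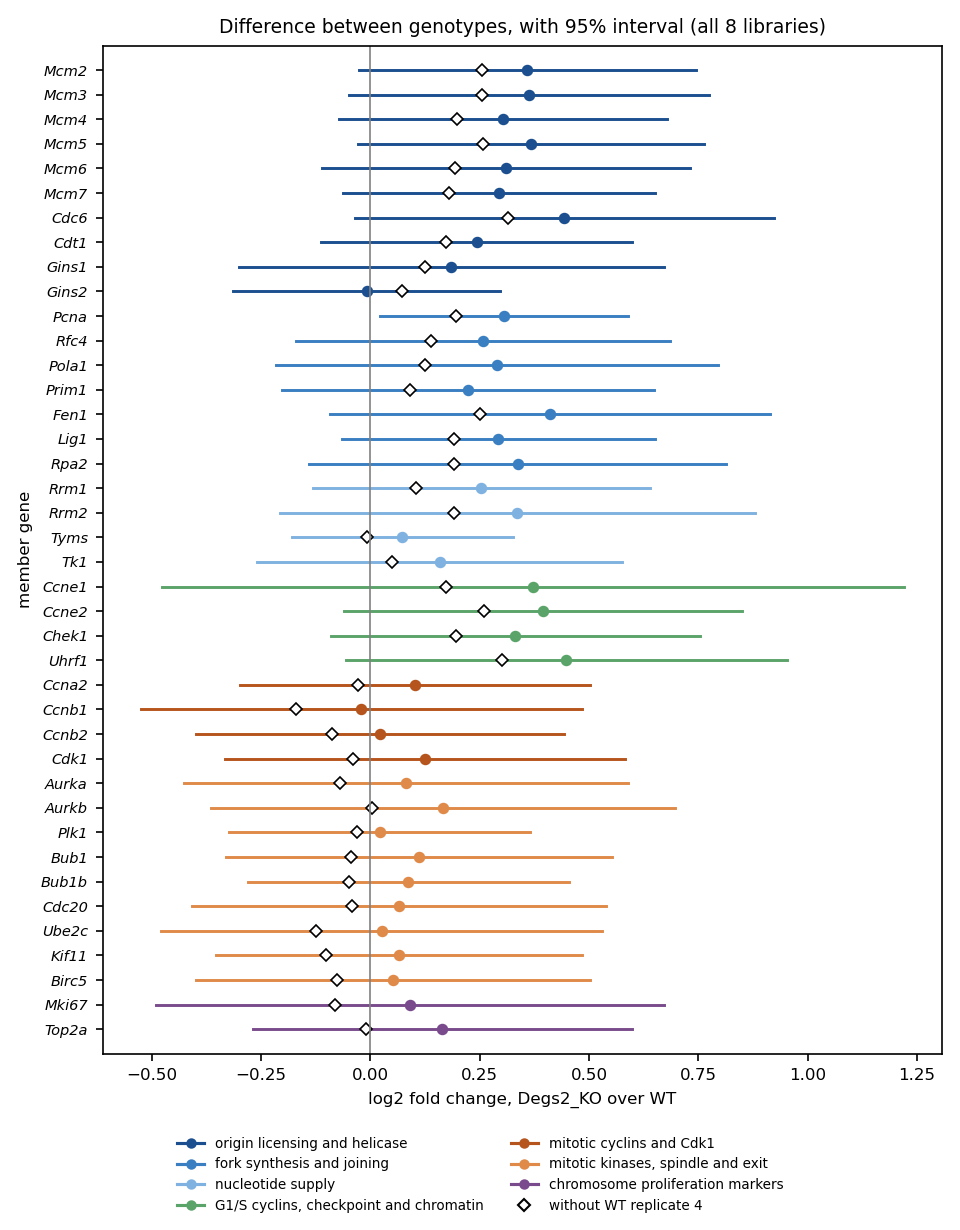
Fitted log2 fold change of each gene, Degs2_KO over WT, with its 95% interval from all 8 libraries (filled circles and lines, coloured by role) and the value without WT 4 (open diamonds). All intervals but that of Pcna cross 0; without WT 4 the diamonds of the replication genes stay mostly right of 0 and those of the mitotic genes lie mostly left of it.

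To compare replication with mitosis, the Mcm, Pcna, Gins and Rrm genes (11) were set against the Ccnb, Plk1, Aurk and Kif11 genes (6). The median log2 fold change was 0.31 for the replication genes, with 10 of 11 above 0, and 0.044 for the mitotic genes, with 5 of 6 above 0. With wider lists, 21 replication genes had a median of 0.29 (20 above 0) and 15 mitotic genes 0.082 (14 above 0). For all 15 of the wider mitotic list the 95% interval lay inside a 2-fold change either way, and for 11 of them inside 1.5-fold. Of the 21 replication genes all were inside 2-fold and 3 inside 1.5-fold. Without WT 4 both medians were lower: the replication median was 0.19 with 11 of 11 above 0, and the mitotic median was -0.079 with 1 of 6 above 0. Without WT 3 the mitotic median was -0.046 with 2 of 6 above 0, and the replication median 0.30. The mitotic median was also lower without Degs2_KO 3, at 0.017 with 3 of 6 above 0, and the replication median was then 0.32. Other omissions raised the mitotic median: it was 0.19 without WT 1, 0.11 without WT 2 and 0.18 without WT 1 and Degs2_KO 3 together, each with 6 of 6 above 0, and the replication median was then 0.44, 0.33 and 0.42. The mitotic median minus the replication median was -0.26, and it lay between -0.34 and -0.17 in every alternative tried. Without WT 4 and Degs2_KO 2, and with the other 6 libraries blocked in the 3 pairs of nearest ID number in the labels, the wider replication list had 19 of 21 above 0 (median 0.13) and the wider mitotic list 2 of 15 (median -0.051). No test was made of the difference between the lists, whose genes were picked with results of these libraries known.

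Per library the lists did not separate the genotypes. The mean centred log2 CPM of the replication genes (each gene minus its mean over the 8 libraries) was 0.19, -0.11, -0.20 and -0.47 in WT 1 to 4 and -0.17, 0.35, 0.16 and 0.24 in Degs2_KO 1 to 4. WT 1 lay among the Degs2_KO libraries, and Degs2_KO 1 lay among the WT libraries. For the mitotic genes the same measure was 0.43, 0.18, -0.31 and -0.50 in WT 1 to 4 and -0.038, 0.066, 0.16 and 0.023 in Degs2_KO 1 to 4. Here the Degs2_KO libraries lay close together, and WT held both extremes. The mitotic level minus the replication level was 0.24, 0.28, -0.11 and -0.030 in WT 1 to 4 and 0.13, -0.29, -0.0040 and -0.21 in Degs2_KO 1 to 4, with a mean of 0.094 ± 0.20 in WT and -0.094 ± 0.19 in Degs2_KO (SD, n = 4 each). The 2 highest values were WT 1 and 2 and the 2 lowest Degs2_KO 2 and 4, and the other 4 overlapped.

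**Figure D4:**
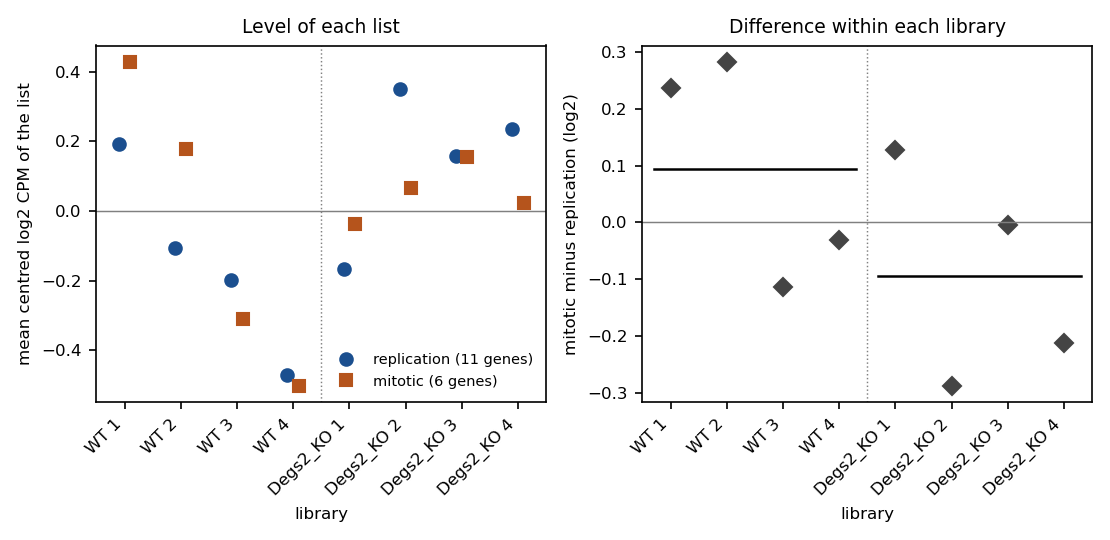
Mean centred log2 CPM of the 11 replication genes (circles) and 6 mitotic genes (squares) in each library (left), and the mitotic minus the replication level in each library (right), where horizontal bars are the means of 4 libraries, 0.094 for WT and -0.094 for Degs2_KO. Both lists are lowest in WT 4, and the genotypes overlap in both panels.

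Library extremes differed between the lists. Degs2_KO 2 was the highest library for 14 of the 21 replication genes and for 0 of the 15 mitotic genes, while WT 1 was the highest for 1 replication gene and 12 mitotic genes. Over all tested genes these libraries were the highest for 7.79% and 13.8%. WT 4 was lowest for 19 of 21 and 13 of 15. Other lists also had their extremes in WT 4: the summed level of 11 fibroblast markers was 40.4 CPM there against 2.63 to 20.3 CPM in the other 7 libraries, the mature colonocyte list was highest there (0.37 on the centred log2 scale), and so was the epithelium list (0.17). On that scale the smooth muscle (0.389), myeloid (0.615) and erythroid (0.904) lists were highest in WT 4 as well. The crypt stem and Wnt target list was lowest there (-0.307), as was the list of E2F, Rb, MuvB and Foxm1 regulators (-0.182). No fibroblast marker was at 0 in all libraries, and 4 of the 11 were under 1 CPM in every library. The T cell sum was highest in WT 1, at 34.3 CPM, and next in Degs2_KO 3, at 28.4 CPM, against 4.08 to 19.0 CPM in the other 6 libraries. The part of these in the member levels of WT 4 and WT 1 was not tested. Without WT 1, the highest library for the mitotic genes, all 40 members were above 0 with a median of 0.36. At an unadjusted p under 0.05 the edgeR test then gave 16 members. The background was 782 of 16367 genes, against 183 genes with all libraries. Yet 0 members passed the adjusted threshold (smallest adjusted p = 0.879, edgeR). Without Degs2_KO 1 the numbers were 38 above 0, a median of 0.34, 10 with an unadjusted p under 0.05 and 0 past the threshold. There the background at an unadjusted p under 0.05 was 298 of 16395 genes.

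Spread within the genotypes was unequal for these genes. For 39 of 40 members the SD of log2 CPM was larger among WT than among Degs2_KO libraries, against 60% of all genes tested. In the 15 mitotic genes the median SD was 0.45 in WT and 0.096 in Degs2_KO, in the 21 replication genes 0.32 and 0.23, and over all genes 0.23 and 0.20. Without WT 4 the WT median of the mitotic genes was 0.36. Cyclin A2 had the most even Degs2_KO libraries, with a coefficient of variation (CV) of 2.08% against 27.8% in WT, from 97.5, 86.9, 61.2 and 53.6 CPM in WT 1 to 4 and 80.4, 77.9, 81.7 and 81.2 CPM in Degs2_KO 1 to 4. In Kif11 it was 4.15% against 27.2%, and in Cdc20 5.54% against 33.1%. Mki67 was uneven in both groups, with 29.2% in Degs2_KO and 30.1% in WT. These genes share libraries and depth, and no test was made of the spread.

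**Figure D5:**
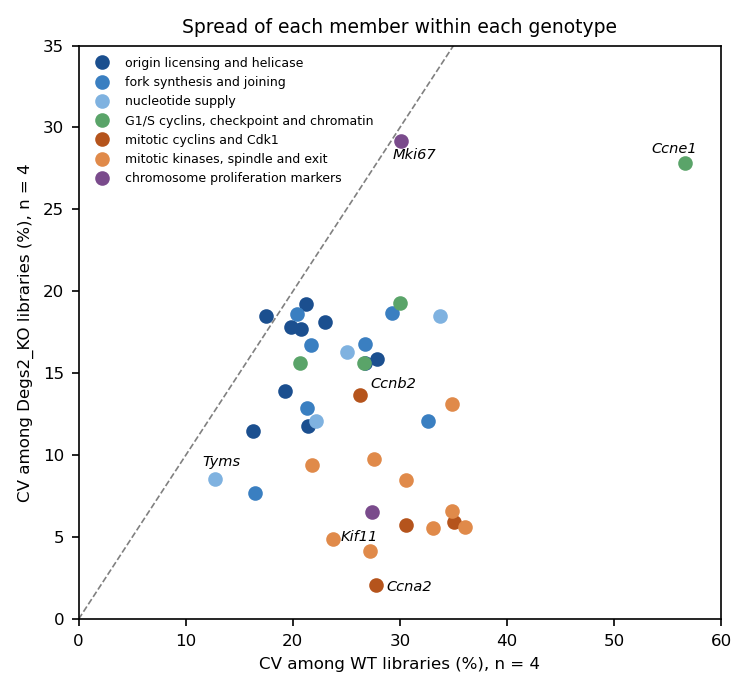
CV of each gene among the 4 WT libraries (x axis, %) and among the 4 Degs2_KO libraries (y axis, %), coloured by role, with a dashed line where both are equal. Mitotic genes other than Mki67 lie low on the y axis, at 21.8 to 36.1% in WT. Some replication genes share that WT range, such as Rrm2 (33.7%) and Fen1 (32.6%), and nearly all genes lie under the line.

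Further genes of the same programs, listed apart from the 40, had medians on the same side of 0, and none passed the test. Of 40 other replication genes 39 were above 0, with a median of 0.18 and 0 past the threshold. The smallest p-values in that list belonged to Exo1, an exonuclease of replication and mismatch repair (0.43 ± 0.19), and Rfc3, a clamp loader subunit (0.20 ± 0.10). Of 45 other mitotic genes 36 were above 0, with a median of 0.067 and 0 past the threshold, led by Smc4 of condensin (0.12 ± 0.10) and the checkpoint gene Mad2l1 (0.14 ± 0.14). Without WT 4 these counts were 36 of 40 and 10 of 45, with medians of 0.099 and -0.059. The list of E2F, Rb, MuvB and Foxm1 regulators had 17 of 21 above 0 and a median of 0.071. Tfdp1, the dimer partner of E2F proteins, was 70.4, 70.9, 62.6 and 59.1 CPM in WT 1 to 4 and 66.7, 89.3, 75.4 and 79.9 CPM in Degs2_KO 1 to 4, a log2 fold change of 0.24 ± 0.10. E2f1, the activator of the S phase program, had 0.41 ± 0.20. Of 18 G1 cyclins, kinases and inhibitors tested 14 were above 0, with a median of 0.077, and Ccnd1, cyclin D1, had 0.26 ± 0.11. Cdk7, the kinase that activates other cyclin-dependent kinases, had 0.11 ± 0.084. Crypt stem and Wnt target genes had 13 of 17 above 0 and a median of 0.056, with the crypt receptor Ephb2 at 0.10 ± 0.080 and Cdca7 at 0.22 ± 0.18. Mature colonocyte genes had 6 of 19 above 0 and a median of -0.096, with the phosphate transporter Slc20a1 at -0.54 ± 0.30 and the brush border protease Mep1a at -0.30 ± 0.23. No gene of these lists passed the threshold.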

How the data were processed

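Estimated counts per gene were deposited by the authors in a Cuffdiff table with columns for each library, per the file headers. They are scaled by a library factor: after dividing by the step of each library, 96.9 to 97.2% of values were whole within 0.02. Each value also carries a status word, deposited beside the counts; no member had one other than OK. The submitters' processing notes name cutadapt 1.9, TopHat2 2.0.10, Cufflinks 2.1.1, Cuffdiff and mm10. The 24 further columns of per-sample values were not used.

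Counts were rounded and fitted in edgeR 4.0.16 (R 4.3.3): filterByExpr (minimum count 10, total 15), TMM, quasi-likelihood test of genotype, 2-sided, Benjamini-Hochberg over 16132 genes, threshold 0.05. CPM are TMM-normalised. A prior count of 2 entered the log2 CPM used for list levels, spread, principal components and limma-trend. It was not set for the log2 fold changes fitted by edgeR. DESeq2 1.42.0 and limma 3.58.1 served as alternatives. Scripts were tested on simulated counts. A count of 3 fragments corresponds to 0.0602 to 0.0914 CPM. Symbols (357 of 358 listed) and exon lengths came from GENCODE M21, pseudogene copies from BLAST+ 2.17.0.

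The 40 genes and all lists were chosen with earlier results of these data known. Values in every library were given for 10 named genes, for the smallest p and largest fold change in each class and for the largest and smallest spread; of other lists up to 2 genes with the smallest p were named. Values of Gins1, Gins2, Ccna2 and Tfdp1 were added after they were seen. For each gene the mean of its group was taken from the log2 CPM of each library. These deviations correlated between same-numbered libraries at -0.425, 0.444, -0.56 and -0.102, so the numbers were not treated as pairs.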

Additional observations from a re-analysis of the deposited data

Results flagged for a closer look

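In 6 of 82 groups of 4 libraries 1 library lay far from the other 3, by Dixon's ratio above 0.829; chance flags about 1 in 20. In Degs2_KO the low library was Degs2_KO 1 each time: Mcm7 at 39.3 CPM (others 49.9 to 51.4), Cdt1 at 14.1 (18.7 to 19.3), Lig1 at 37.5 (49.2 to 49.7) and Plk1 at 42.9 (51.3 to 53.0). In WT, Gins1 was high in WT 1 at 3.88 CPM (others 2.36 to 2.44) and Rrm1 was low in WT 4 at 37.6 (59.5 to 64.0). Without Degs2_KO 1 the median log2 fold change of the 40 genes was 0.34.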

How the results depend on the processing

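Over 21 alternatives no member passed the adjusted threshold (smallest adjusted p 0.879), and 22 of the 40 kept the sign of their log2 fold change in every one. The count of all genes called was 2 with DESeq2, also with no filter and with the authors' scaling undone (both chosen after seeing the data); there the Degs2 level passed, at -1.0633, -1.0585 and -1.0626. With the replicate number as a block no member was called and 39 of 40 were above 0 with a median of 0.241. In that fit 99 of all genes had an unadjusted p under 0.05, and Ccnb1 was 0.0440. In deviations from the group means, 1 of 8 libraries correlated best with its own number. Ccnb1 was also above 0 with limma-trend (0.0450), limma-voom (0.0454) and without WT 1 and Degs2_KO 3 together (0.1492), and Gins2 with no filter (0.0043). Without WT 4 and Degs2_KO 2, and with the other 6 libraries blocked in 3 pairs of nearest ID number (2 choices changed together, and 25 of 40 is also the count without WT 4 alone), 25 of 40 members were above 0, with 0.0357 for Gins2, -0.0166 for Prim1, -0.0578 for Tyms, -0.0584 for Ccnb2, -0.0374 for Cdk1, -0.0044 for Aurka, -0.0149 for Aurkb, -0.0313 for Plk1, -0.0995 for Bub1, -0.0592 for Bub1b, -0.0892 for Ube2c, -0.1052 for Kif11, -0.0514 for Birc5, -0.0714 for Mki67 and -0.0201 for Top2a. Leaving out 1 library at a time gave 25 to 40 members above 0, 0 to 16 members with an unadjusted p under 0.05 and, for genes that changed sign, Gins2 -0.1122 to 0.0803, Tyms -0.0083 to 0.1303, Ccna2 -0.0284 to 0.2622, Ccnb1 -0.1697 to 0.1886, Ccnb2 -0.0879 to 0.1846, Cdk1 -0.0405 to 0.2988, Aurka -0.0691 to 0.3352, Plk1 -0.085 to 0.1628, Bub1 -0.0446 to 0.2341, Bub1b -0.0491 to 0.1949, Cdc20 -0.0777 to 0.2757, Ube2c -0.125 to 0.2169, Kif11 -0.1027 to 0.1853, Birc5 -0.0757 to 0.2517, Mki67 -0.1221 to 0.2752 and Top2a -0.0104 to 0.2672. Without WT 1 and Degs2_KO 3 together 14 members had an unadjusted p under 0.05, against 1 with all libraries. With other settings that keep every library it was 0 to 3. Of all genes tested, 650 had such a p without WT 1 and Degs2_KO 3, against 183 with all libraries. Leaving out 1 library at a time gave 133 to 782 such genes. The share of members with an E2F motif was 23.5%, 50% with shortened words and 11.8% from 100 bases before the start. Over all promoters the shares were 2.32%, 9.69% and 1.26%. The causes of these shifts were not tested. With 4 libraries a group, the fitted intervals of 14 of 40 members lay inside 1.5-fold and of 39 inside 2-fold.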
